A study of Mus musculus with 6 samples.

Results

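The FGF and PDGF genes described here are 9 rows of a table of 28212 genes, chosen by gene name: the FGF ligand genes Fgf1 and Fgf2, the carrier protein gene Fgfbp1, the FGF receptor genes Fgfr1, Fgfr2 and Fgfr3, and the PDGF ligand genes Pdgfa, Pdgfb and Pdgfc. All 9 names were found, and 8 of the 9 genes passed the filter on low counts and were tested, the exception being Fgfr2. Fgfbp1 encodes neither a ligand nor a receptor but a protein that carries FGFs. Poly(A) RNA was sequenced from the mouse line LD-1, which comes from a bile duct cancer (cholangiocarcinoma). In 3 libraries the LD-1 cells had been stimulated with hepatocyte growth factor (HGF), which activates the receptor Met, and the other 3 libraries were controls of that line. The labels give no dose and no time of exposure, do not say what the controls received, and name the material both as this line and as tumour tissue from mice. Whether replicates came from separate cultures is not stated, and the p-values measure only how far these libraries spread, which may be technical.

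FGFs and PDGFs are secreted growth factors that bind receptor tyrosine kinases, and the activated receptors signal through RAS and the ERK kinases as Met does. FGFs act together with heparan sulfate chains on the cell surface, which hold the ligand and the receptor in 1 complex. PDGFs act as dimers on the receptors PDGFR-alpha and PDGFR-beta, and in the liver they are known as growth factors for stellate cells and fibroblasts. In human cholangiocarcinoma of the intrahepatic ducts FGFR2 is a recurrent partner of gene fusions.

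Library totals lay between 57073866 counts (Control 3) and 66302502 counts (Control 1). On average 1108.5 genes of a library had exactly 4 counts, 527.3 had 3 and 306 had 5. Each library also had 755 to 854 genes at 1 count and 635 to 752 at 2, fewer than at 4. The peak at 4 makes a read pair seem worth about 4 counts, which the counts of 1 and 2 do not follow. If so, the evidence behind a count is smaller than its size. Krt19, a keratin of bile duct cells, had an FPKM of 159 to 171 in HGF libraries and 61.1 to 65.7 in controls, and the 10 bile duct markers summed to an FPKM of 1410 to 1420 in HGF libraries and 753 to 784 in controls. Krt7 and Epcam, which define bile duct epithelium, were low, at an FPKM of 0.0567 to 0.0993 and 0.753 to 1.2 in HGF libraries and 0.0335 to 0.123 and 1.15 to 1.85 in controls. Control 3 stood apart, with a summed FPKM of 198 over 8 skeletal muscle markers and 115 over 8 macrophage markers, against 2.5 to 2.72 and 40.4 to 44.3 in the other controls. The HGF libraries summed to 2.11 to 3.8 and 63.8 to 67.8 over those lists. Of the macrophage sum, Cd68 made up 46.4 to 49.5 in HGF libraries and 26.5, 27.2 and 29 in controls. Csf1r had 1.35 to 1.44 in HGF libraries and 1.04, 1.2 and 4.76 in controls. Adgre1 had 0.169 to 0.31 in HGF libraries and 0.0493, 0.0783 and 4.61 in controls. The 8 hepatocyte markers summed to 11.4 to 18.7 in HGF libraries and 2.61 to 3.49 in controls, with 7 of 8 higher, and the defining marker Alb had 2.89 to 6.26 in HGF libraries and 0 to 0.17 in controls. The part of these transcripts in the results was not tested. In RNA of bulk cells, fewer cells of a type and less RNA per cell cannot be told apart.

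Of the 8 tested genes, 3 rose with HGF and 1 fell. Pdgfc rose 2.07-fold, Fgfr1 1.3-fold and Pdgfa 1.23-fold, and Fgfr3 fell to 0.502 of its control level (edgeR quasi-likelihood test, adjusted p below 0.05). Over all 17322 genes tested, 19.1% were called higher and 19.3% lower, 38.5% in either direction. The 4 calls among 8 genes are 50%, read against that background. These genes were chosen with earlier results of these data known. The median log2 fold change was 0.15 over the 8 genes and -0.02 over all tested genes. Pdgfc and Fgfr3 moved more than most genes: 9.79% of tested genes had a larger absolute log2 fold change than Pdgfc and 10.8% a larger one than Fgfr3, against 39.5% for Fgfr1 and 48.4% for Pdgfa. Without Control 3 there were again 3 higher and 1 lower calls, with log2 fold changes of 1.11 for Pdgfc, 0.37 for Fgfr1, 0.34 for Pdgfa and -1.09 for Fgfr3.

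**Figure D1:**
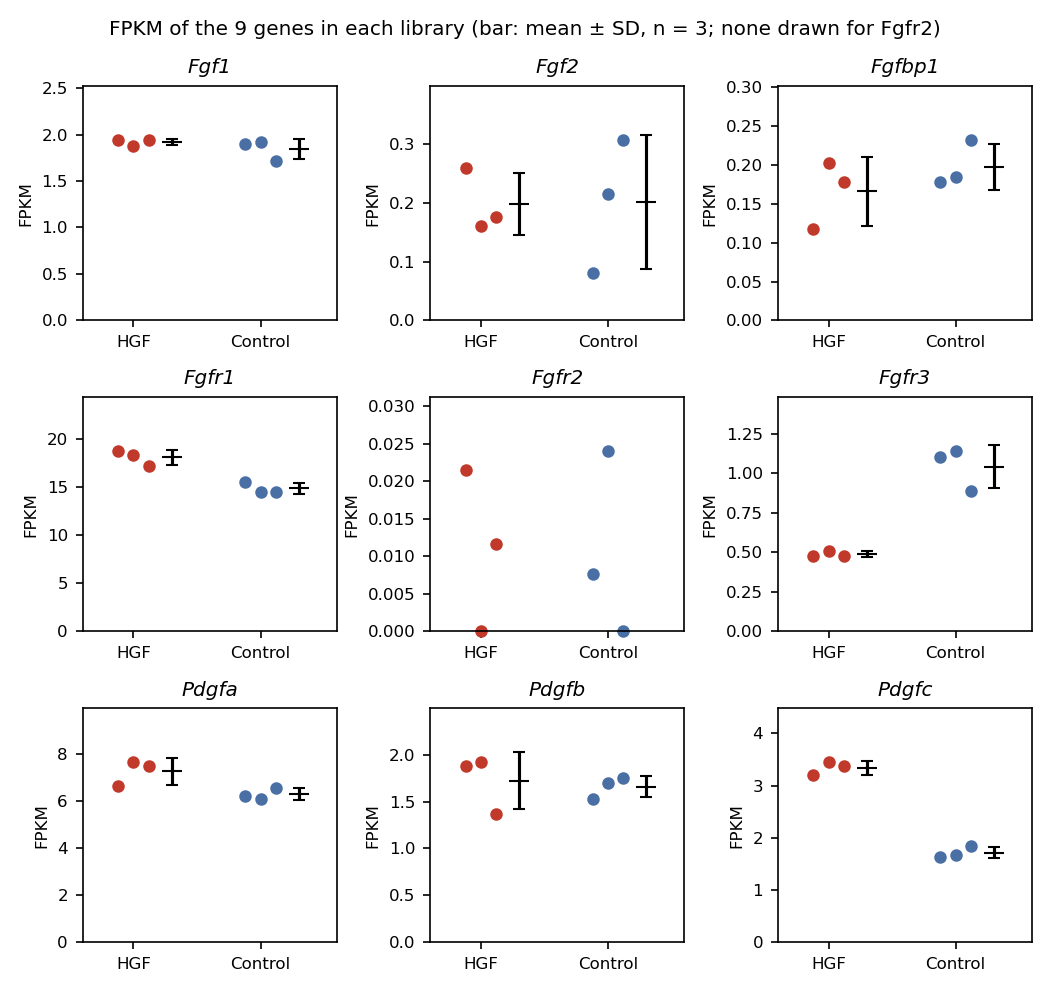
FPKM as the authors deposited it (read pairs scaled to the gene's transcript length and to the library's size) of each gene in the 3 HGF libraries (red, left) and the 3 controls (blue, right), with the mean and SD over 3 libraries beside the points (none drawn for Fgfr2). The groups stood apart for Fgfr1, Fgfr3, Pdgfa and Pdgfc, with Pdgfc at 3.2 to 3.45 in HGF libraries and 1.64 to 1.84 in controls. They overlapped for the other genes. Over all tested genes, 53.5% had groups that stood apart.

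Levels per length of transcript spanned a wide range. Fgfr1 was the most abundant of the 9 genes in each group, with a mean FPKM above that of 80.8% of tested genes, followed by Pdgfa (63.6%). In the HGF libraries the order went on with Pdgfc, Fgf1, Pdgfb, Fgfr3, Fgf2, Fgfbp1 and Fgfr2, where Fgf1 and Pdgfb, and Fgf2 and Fgfbp1, overlapped in range. In controls Fgf1, Pdgfc and Pdgfb followed Pdgfa with ranges that overlapped from each to the next, and Fgfr3, Fgf2, Fgfbp1 and Fgfr2 came after them. Pdgfc thus stood above the range of Fgf1 in HGF libraries, while the ranges of these genes overlapped in controls. Gene positions below are those of the deposited table, and all 9 are identical to those of GENCODE M21 on GRCm38, although the submitters' processing notes name mm8.

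The FGF ligand genes and their carrier gave no call. Fgf1 (ENSMUSG00000036585, chromosome 18, 38838673 to 38929472, minus strand) encodes acidic FGF, which binds all FGF receptors and leaves cells without a classical signal peptide. Its FPKM was 1.94, 1.88 and 1.94 in HGF libraries and 1.9, 1.92 and 1.72 in controls. The groups overlapped, and the log2 fold change (HGF minus control) was 0.15 ± 0.08 (SE, 95% interval -0.04 to 0.34, adjusted p = 0.184, edgeR quasi-likelihood test with Benjamini-Hochberg adjustment). The fold changes here are scaled by TMM, which corrects for the few abundant RNAs that fill a library, with factors of 0.9627 to 0.9675 in HGF libraries and 1.028 to 1.043 in controls. FPKM lacks this step, so fitted changes lie slightly above ratios of FPKM, and when scaled by total counts alone the median gene was at -0.13, not -0.02.

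Fgf2 (ENSMUSG00000037225, chromosome 3, 37348346 to 37410108, plus strand), which encodes basic FGF, was low and uneven. It had 127, 79 and 88 counts in HGF libraries and 40, 108 and 137 in controls, or an FPKM of 0.259, 0.16 and 0.176 against 0.0801, 0.216 and 0.307. Control 1 was the lowest and Control 3 the highest of the 6 libraries, so the control range enclosed the HGF range. The log2 fold change of 0.07 ± 0.44 had a 95% interval of -0.94 to 1.07 (edgeR adjusted p = 0.92). That interval holds changes of up to about 2-fold in either direction. Without HGF 1 or Control 1 its sign turned (-0.17 and -0.31), as it did with total counts (-0.03), and without Control 3 it was 0.53. Fgf2 overlaps Nudt6, a gene on the opposite strand with 125, 161 and 148 counts in HGF libraries and 157, 136 and 128 in controls. Reads of this pair could be shared, since the strand setting of the counting is not known here.

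Fgfbp1 (ENSMUSG00000048373, chromosome 5, 43978858 to 43981779, minus strand) encodes a secreted protein that frees FGFs from the matrix. It had 20, 33 and 30 counts in HGF libraries and 30, 32 and 34 in controls. These would be a handful of read pairs each if a pair is worth 4 counts. The groups overlapped (log2 fold change -0.16 ± 0.40, 95% interval -1.07 to 0.75, edgeR adjusted p = 0.788), and without HGF 1 the value was 0.02.

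**Figure D2:**
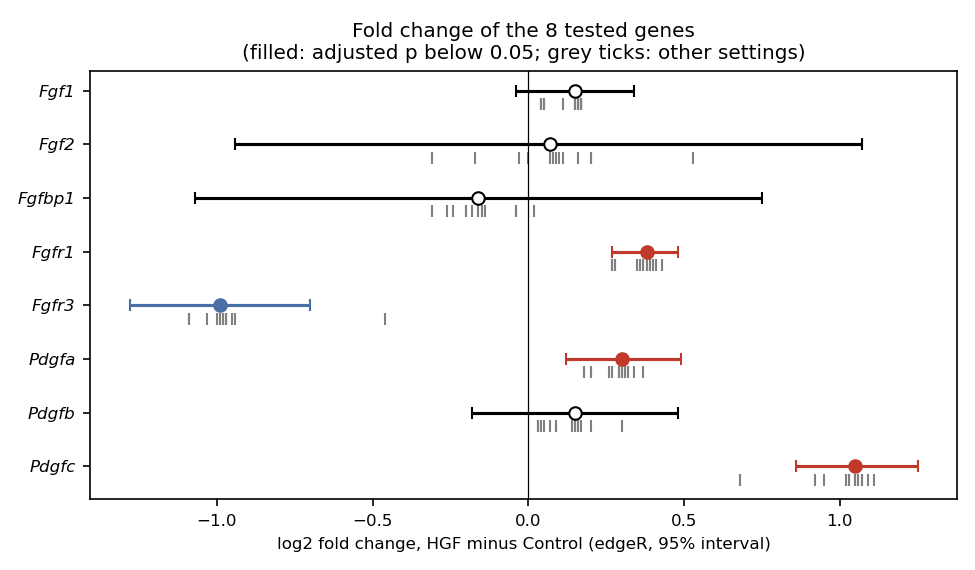
Log2 fold change, HGF minus control, of the 8 tested genes with its 95% interval (points, filled where adjusted p was below 0.05, and bars), and its value under other processing settings (grey ticks). Fgfr1, Pdgfa and Pdgfc lie to the right of 0 and Fgfr3 to the left, while the intervals of Fgf1, Fgf2, Fgfbp1 and Pdgfb cross 0, and the signs of Fgf2 and Fgfbp1 turn under some settings.

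Among the receptors, the abundant Fgfr1 rose slightly and the scarce Fgfr3 fell. Fgfr1 (ENSMUSG00000031565, chromosome 8, 25513654 to 25575718, plus strand) encodes a receptor for Fgf1 and Fgf2 that is typical of mesenchymal cells. Its FPKM was 18.7, 18.3 and 17.2 in HGF libraries and 15.5, 14.5 and 14.5 in controls. Every HGF library lay above every control, and the log2 fold change was 0.38 ± 0.05 (95% interval 0.27 to 0.48, edgeR adjusted p = 3.68e-04). FPKM groups did not overlap in 18.6% of tested genes with HGF above and in 34.9% with HGF below, or 53.5% in all.

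Fgfr3 (ENSMUSG00000054252, chromosome 5, 33721674 to 33737068, plus strand) encodes a receptor known best as a brake on bone growth. It had 245, 265 and 252 counts in HGF libraries and 581, 595 and 413 in controls. In FPKM these were 0.474, 0.508 and 0.479 in HGF libraries and 1.1, 1.14 and 0.886 in controls, so the lowest control was above the highest HGF library. The log2 fold change was -0.99 ± 0.13 (95% interval -1.28 to -0.70, edgeR adjusted p = 4.27e-04), and without Control 3, the lowest control, it was -1.09 (adjusted p = 3.85e-04).

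Fgfr2 (ENSMUSG00000030849, chromosome 7, 130162451 to 133123350, minus strand) was close to undetected. It had 17, 0 and 9 counts in HGF libraries and 7, 19 and 0 in controls, with an FPKM of at most 0.0215 in HGF libraries and 0.024 in controls. It failed the filter on low counts and was not tested. If a read pair is worth 4 counts, a count of 0 in a library allows up to 12 counts (3 read pairs). The annotated span of Fgfr2 overlaps 48 other genes of the table.

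With Fgfr4, which had 6, 0 and 8 counts in HGF libraries and 14, 6 and 0 in controls, the 4 FGF receptor genes had a summed FPKM of 18.6 ± 0.782 in HGF libraries and 15.9 ± 0.641 in controls (SD, n = 3 each). Fgfr1 made up 97.3%, 97.3% and 97.1% of that sum in HGF libraries and 93%, 92.5% and 94.3% in controls. Fgfr3 made up 2.46%, 2.71% and 2.71% in HGF libraries and 6.62%, 7.24% and 5.75% in controls. The FPKM of Fgfr1 was 35.9 to 39.5 times that of Fgfr3 in HGF libraries and 12.8 to 16.4 times in controls. These shares restate the changes of Fgfr1 and Fgfr3 and were not tested.

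**Figure D3:**
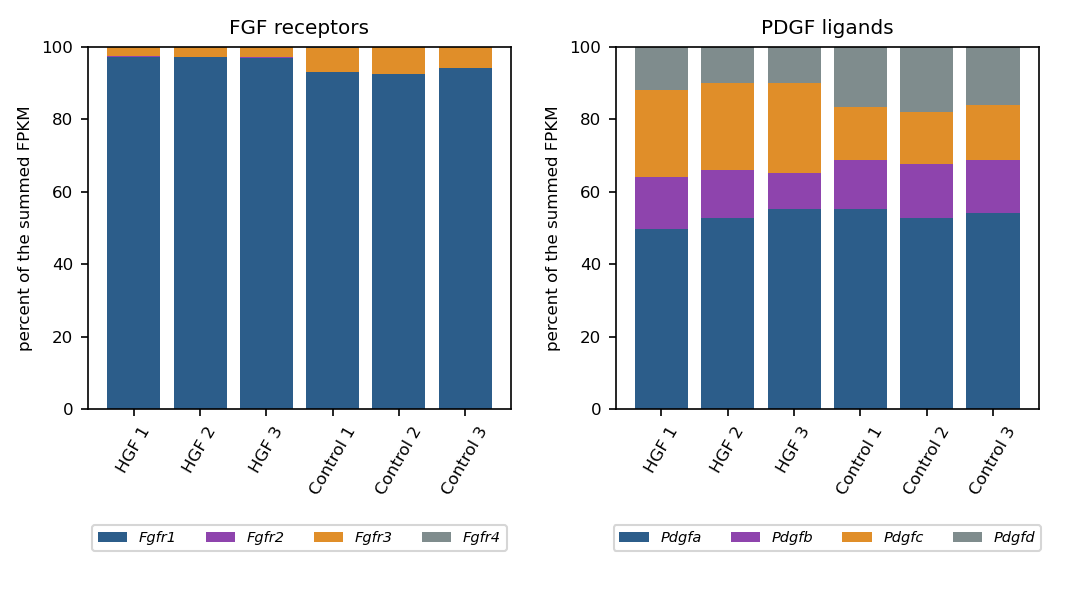
Share of the summed FPKM of the 4 FGF receptor genes (left) and of the 4 PDGF ligand genes (right) in each library. Fgfr1 fills over 92% of each receptor bar, and the share of Pdgfc is 23.9% to 24.9% in HGF libraries and 14.6% to 15.2% in controls.

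The PDGF ligand genes differed in size of change. Pdgfc (ENSMUSG00000028019, chromosome 3, 81036416 to 81214040, plus strand) encodes PDGF-C, a latent ligand whose CUB domain must be cut off, by tissue plasminogen activator among others, before it binds PDGFR-alpha. It had 1167, 1261 and 1254 counts in HGF libraries and 612, 622 and 606 in controls. Its FPKM was 3.2, 3.45 and 3.37 in HGF libraries and 1.64, 1.68 and 1.84 in controls, so each HGF library was well above each control and the spread within groups was small. The log2 fold change was 1.05 ± 0.09 (95% interval 0.86 to 1.25, edgeR adjusted p = 3.83e-05), the largest in size of the 8 tested genes, with Fgfr3 at -0.99 close to it. No other gene of the table overlaps Pdgfc.

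Pdgfa (ENSMUSG00000025856, chromosome 5, 138976014 to 138997370, minus strand) encodes the A chain, which dimerises to PDGF-AA, a ligand of PDGFR-alpha. Its FPKM was 6.61, 7.64 and 7.48 in HGF libraries and 6.21, 6.06 and 6.55 in controls. The groups did not overlap, but HGF 1 was just above Control 3. The log2 fold change of 0.30 ± 0.08 (95% interval 0.12 to 0.49) passed the threshold (edgeR adjusted p = 0.018). The call was lost without HGF 2 (0.26, adjusted p = 0.0784), without Control 1 (0.29, adjusted p = 0.0532), without Control 2 (0.27, adjusted p = 0.0731) and with total-count scaling (0.20, adjusted p = 0.0794), and over 15 alternatives its adjusted p ranged from 0.00589 to 0.102. Pdgfa overlaps 6330403L08Rik on the opposite strand, with 544, 524 and 489 counts in HGF libraries and 542, 628 and 517 in controls.

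Pdgfb (ENSMUSG00000000489, chromosome 15, 79995874 to 80014977, minus strand) encodes the B chain, whose dimer PDGF-BB binds each PDGF receptor. Its FPKM was 1.88, 1.92 and 1.37 in HGF libraries and 1.53, 1.7 and 1.75 in controls. HGF 3 was the lowest of the 6 libraries and HGF 1 and HGF 2 the highest, so the groups overlapped. The log2 fold change was 0.15 ± 0.14 (95% interval -0.18 to 0.48, edgeR adjusted p = 0.464), and without HGF 3 it was 0.30 (adjusted p = 0.0821).

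With Pdgfd, the gene of the ligand that urokinase activates, the 4 PDGF ligand genes had a summed FPKM of 13.7 ± 0.611 in HGF libraries and 11.6 ± 0.429 in controls (SD, n = 3 each). Pdgfa held the largest share in each library, 49.8% to 55.2% in HGF libraries and 52.8% to 55.2% in controls. Pdgfc took 24.3% ± 0.515 in HGF libraries and 14.8% ± 0.378 in controls, and Pdgfd 10.5% ± 1.15 and 16.8% ± 0.893 (SD, n = 3 each). The FPKM of Pdgfa was 2.06 to 2.22 times that of Pdgfc in HGF libraries and 3.56 to 3.79 times in controls.

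The sequences before the start sites of Pdgfc and Fgfr3, the genes with the largest changes in opposite directions, are shown to compare their base composition and motifs. They are from RefSeq on GRCm38.p6, 5′ to 3′ on the plus strand, at chr3:81036166-81036415 and, for the first of 2 Fgfr3 start sites, chr5:33721474-33721673, and end just before the first annotated base of each gene. A table of such windows held 6 of the 9 genes. Capitals mark matches, on either strand, to the letters TGANTCA of AP-1 sites, GGGCGG of GC boxes, CCGGAA of ETS sites, GCGNGGGCG of EGR sites and TATAAA of TATA boxes.
Pdgfc: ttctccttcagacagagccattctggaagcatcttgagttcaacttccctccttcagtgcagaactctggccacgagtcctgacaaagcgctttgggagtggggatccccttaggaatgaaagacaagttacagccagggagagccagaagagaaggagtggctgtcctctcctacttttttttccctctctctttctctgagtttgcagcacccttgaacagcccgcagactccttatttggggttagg
Fgfr3: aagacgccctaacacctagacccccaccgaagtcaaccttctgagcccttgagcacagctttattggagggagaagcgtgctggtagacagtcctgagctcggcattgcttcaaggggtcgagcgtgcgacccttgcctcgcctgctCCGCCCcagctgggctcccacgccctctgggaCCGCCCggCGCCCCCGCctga
The 250 bases of Pdgfc had a GC content of 50.8% and held none of these letters. The 200 bases of Fgfr3 had a GC content of 65% and held 2 GC boxes and 1 EGR match, and these did not overlap. The 250 bases before the second Fgfr3 start site, not shown, had a GC content of 72.8%. They held 2 GC boxes and 0 EGR matches. Among 32817 windows of 250 bases before RefSeq start sites, 32.7% held a GC box, 4.7% an EGR match, 6.75% an AP-1 match, 12% an ETS match and 12.4% a TATA match. A match describes letters only, and the shorter Fgfr3 run had fewer positions to match.

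In what follows, the error of an FPKM is the SD over 3 libraries and that of a log2 fold change its SE. Other ligand genes of these families were mostly scarce, and none rose. Of 16 such genes measured, 8 were tested, with 0 higher and 3 lower (median log2 fold change -0.25). That is 37.5% called, near the 38.5% of all tested genes. At an unadjusted p under 0.05 edgeR had 1 higher, and DESeq2 and limma called 0 higher. Fgf11, an FGF that stays inside the cell, fell to an FPKM of 1.27 ± 0.082 in HGF libraries, against 2.19 ± 0.24 in controls (log2 -0.70 ± 0.13, edgeR adjusted p = 0.00266), and kept its call in all 15 alternatives. Pdgfd averaged 1.44 ± 0.121 FPKM in HGF libraries and 1.95 ± 0.0859 in controls (log2 -0.34 ± 0.12, edgeR adjusted p = 0.0459), a call lost in 9 of 15 alternatives, leaving out any library except HGF 1 among them. Fgf17 had 0, 4 and 0 counts with HGF and 12, 16 and 22 in controls (edgeR adjusted p = 0.0331), which are few. Its call was lost without any library except HGF 2. The 3 lower calls became 1 without HGF 3, Control 1, Control 2 or Control 3.

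Among other receptors and co-receptors, Pdgfrb was the clearest change. Pdgfrb encodes PDGFR-beta, the receptor of pericytes and stellate cells, and had an FPKM of 2.02, 1.86 and 2.04 in HGF libraries and 1.21, 1.2 and 1.04 in controls. Each HGF library lay above each control (log2 0.87 ± 0.10, edgeR adjusted p = 2.05e-04). Pdgfra, the receptor gene for PDGF-AA and PDGF-CC, had an FPKM of 0.79, 0.664 and 0.533 in HGF libraries and 0.67, 0.592 and 0.633 in controls, with overlapping groups (log2 0.16, edgeR adjusted p = 0.435). Of 12 genes in this list 9 were tested, and 4 rose and 0 fell (median 0.81). That is 44.4% called, near the 38.5% of all tested genes. At an unadjusted p under 0.05 edgeR had 0 lower, and DESeq2 and limma called 0 lower. The co-receptor gene Nrp2 rose by 0.81 ± 0.11 (edgeR adjusted p = 5.50e-04). Flrt2 and Flrt3, genes of membrane proteins that interact with FGF receptors, were higher by 0.48 ± 0.14 and 1.42 ± 0.36, and without HGF 2 neither passed (adjusted p = 0.0773 and 0.0608), which left 2 higher calls. Flrt2, with overlapping FPKM groups, kept its call in only 6 of 15 alternatives. It also missed the threshold without HGF 3, Control 1 or Control 3. The same held without the low-count filter, with total-count scaling and in each limma fit. Pdgfrb and Pdgfra are also markers of fibroblasts and stellate cells. The 12 genes of that marker list summed to an FPKM of 161 to 166 in HGF libraries and 93.4 to 103 in controls. Of its 11 tested genes, 8 were higher. Pdpn alone made up most of that sum, with 106 to 108 in HGF libraries and 74.1 to 83.2 in controls. Col1a1 and Dcn are among the defining markers of the list. Col1a1 had an FPKM of 12.2 to 15.3 in HGF libraries and 4.26 to 5.15 in controls (2.96-fold higher). Dcn had 0.266 to 0.317 in HGF libraries and 0.0418 to 0.38 in controls. Col3a1 was 5.97-fold and Acta2 2.98-fold higher in HGF libraries, against 1.83-fold for Pdgfrb. Col1a2 (2.73-fold) and Thy1 (4.67-fold) also rose more than Pdgfrb, while Pdpn (1.46-fold) and Des (1.31-fold) rose less. Dcn (1.85-fold), Pdgfra (1.12-fold) and Rgs5 (0.499 of its control level) gave no call. The part of such cells in the value of Pdgfrb was not tested.

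Genes for heparan sulfate proteoglycans and the enzymes that build and trim the chains moved in each direction, with more of them higher. Of 29 such genes measured, 25 were tested, and 12 rose and 5 fell (median 0.22). That is 68% called, against 38.5% of all tested genes. Syndecan 1 (Sdc1), a membrane carrier of heparan sulfate, rose to an FPKM of 52.1 ± 3.19 in HGF libraries, against 30.7 ± 1.84 in controls (log2 0.86 ± 0.06, edgeR adjusted p = 1.47e-05). Sdc3 rose by 0.63 ± 0.06 and the glypican gene Gpc1 by 0.77 ± 0.05. Sulf2, which encodes an enzyme that removes sulfate groups from heparan sulfate outside the cell, rose to an FPKM of 12.5 ± 0.508 in HGF libraries, against 7.72 ± 0.332 in controls (log2 0.78 ± 0.05). The 5 lower calls became 2 without HGF 2 and 3 without HGF 1, HGF 3, Control 1 or Control 2.

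Of 23 tested genes of the adaptors and the ERK cascade, 3 rose and 6 fell (median -0.11). That is 39.1% called, near the 38.5% of all tested genes. Hras and Mapk3, which encodes ERK1, rose by 0.48 ± 0.06 and 0.40 ± 0.04, while Map2k2, the gene of the ERK kinase MEK2, fell by 0.36 ± 0.05 (edgeR adjusted p = 8.79e-04). The 6 lower calls became 3 without HGF 2 and 2 without Control 2, and 12 with total-count scaling.

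Most genes listed as feedback inhibitors or output of FGF signalling rose, a list that is also output of ERK downstream of other receptors, Met among them. Of 11 tested, 8 rose and 0 fell (72.7% called, against 38.5% of all tested genes, median 0.42). At an unadjusted p under 0.05 edgeR had 0 lower, as had DESeq2 and limma among their calls. The ETS factor gene Etv4 rose to an FPKM of 72.3 ± 1.01 in HGF libraries, against 46.9 ± 0.505 in controls (log2 0.72 ± 0.04, edgeR adjusted p = 4.08e-06). Dusp6, which encodes an ERK phosphatase, rose by 0.45 ± 0.05, and the inhibitor genes Spred2 and Spred3 by 0.47 ± 0.04 and 0.56 ± 0.06.

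Of the genes for proteins that process PDGFs or release FGFs, 11 of 12 were tested, and 5 rose and 1 fell (median 0.09). That is 54.5% called, against 38.5% of all tested genes. Plau, the urokinase gene, rose to an FPKM of 40.6 ± 1.92 in HGF libraries, against 20.3 ± 2.22 in controls (log2 1.10 ± 0.08, edgeR adjusted p = 1.64e-05). Plat, the gene of tissue plasminogen activator, rose by 0.39 ± 0.05, and Furin, whose product cuts the precursors of PDGF-A and PDGF-B, by 0.43 ± 0.06. Anxa2, the gene of annexin A2, rose by 0.52 ± 0.04. The 1 lower call, Pcsk7, chosen after its values were seen, had a log2 fold change of -0.29 and was lost without any library except HGF 1.

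**Figure D4:**
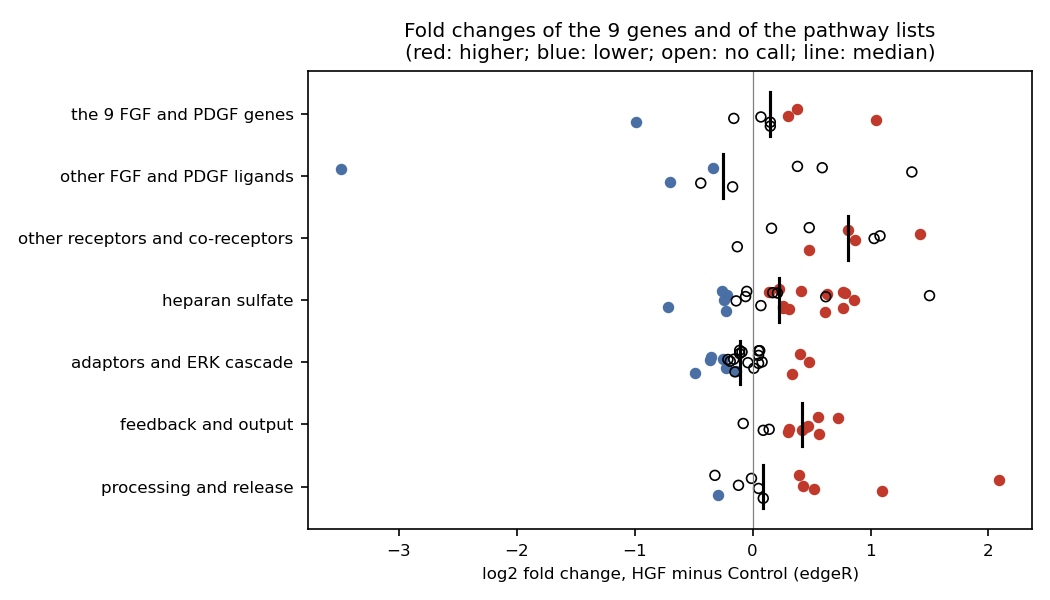
Log2 fold change, HGF minus control, of each tested gene (1 point, red where called higher, blue where called lower, open where not called) among the 9 genes and in 6 lists of FGF and PDGF signalling, with the list median as a line. The feedback and output list has 8 higher genes and a median of 0.42, and the other ligands have 3 lower genes and a median of -0.25. Over all tested genes, 38.5% were called.

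Over all 6 lists 87 genes were tested, of which 32 rose and 15 fell (54%, against 38.5% of all tested genes). The lists were chosen with earlier results of these data known. These shares therefore cannot show whether the pathway differs from other genes. The 15 lower calls became 7 without HGF 2, 8 without Control 1 and 6 without Control 2.

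For the 3 most abundant of the 9 genes, the other genes with the closest profile over the 6 libraries were sought among 10406 genes with a mean FPKM of at least 1. Closeness was the root mean square difference of log2 CPM after centring each gene on its own mean. Closest to Fgfr1 were Fam83g (0.0114) and Arpc4 (0.0159), an actin nucleation subunit gene. Closest to Pdgfa were Pdap1 (0.0357) and the kinase gene Tec (0.0386). Closest to Pdgfc were Blnk (0.0417), an adaptor gene of B cell receptor signalling, and Vegfd (0.048), a lymphatic growth factor gene, with an FPKM of 11.5 ± 0.0786 in HGF libraries and 5.68 ± 0.264 in controls. All 6 rose with HGF, which the choice by profile fixes.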

How the data were processed

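Poly(A) RNA of 6 libraries was sequenced as read pairs, per the labels' protocols. The authors deposited 1 table, with read counts and FPKM of all 6 libraries, per the file headers. Counts were taken as deposited, without rounding, and the deposited FPKM relate them to transcript length and library size. HISAT2 2.0, StringTie 1.3.0, Bowtie 0.12.2 and mm8 stand in the submitters' processing notes, with roles, annotation and strand setting not given in the sources used here.

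Columns were matched to samples by the labels. Genes that passed filterByExpr were tested, with TMM scaling, in edgeR 4.0.16 in R 4.3.3 (quasi-likelihood, two-sided, Benjamini-Hochberg over 17322 genes, threshold 0.05). SE is the size of the log2 fold change over the square root of F. Alternatives were DESeq2 1.42.0, other filters and scalings, a replicate block, each library left out, counts divided by 4, and limma 3.58.1 on log2(FPKM + 1) or log2(FPKM + 0.1), a scale that understates changes of low genes. The test was tested on simulated data. No library was a duplicate: between libraries of 1 group, chi-square per degree of freedom was 2.84 to 7.09, on counts divided by 4 and rounded.

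All 9 genes are named. From each list come up to 4 genes with the smallest p among those called, and for the 3 most abundant genes the 2 closest profiles. One gene that this rule names is not reported here. The 9 genes and the lists were chosen with earlier results of these data known.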

Additional observations from a re-analysis of the deposited data

How the results depend on the processing

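The 9 genes gave 3 higher and 1 lower calls with DESeq2, median-of-ratios scaling, no low-count filter, counts divided by 4 and a replicate block. Lower calls were 0 with limma on filtered log2(FPKM + 1) or log2(FPKM + 0.1), where Fgfr3, under an FPKM of 1 in 4 libraries, was not tested. With each library left out in turn, higher calls ranged from 2 to 3 and lower calls stayed at 1. Pdgfc (log2 0.68 to 1.11), Fgfr1 (0.27 to 0.43) and Fgfr3 (-1.09 to -0.46) kept their calls wherever fitted. Pdgfa lost its call in 5 of 15 alternatives, with limma on unfiltered FPKM at 0.18 (adjusted p = 0.102). Fgf2, never called, was at -0.03 with total-count scaling, -0.000097 with limma on unfiltered FPKM, and -0.31 to 0.53 with 1 library left out (-0.17 without HGF 1, -0.31 without Control 1), and Fgfbp1 was at 0.02 without HGF 1; the cause was not tested.

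Over all genes, higher calls numbered 3316 and were 2061, 2050 and 2065 with limma on log2(FPKM + 1), on log2(FPKM + 0.1) and without its filter. With total-count scaling 2361 were higher and 4941 lower, against 3316 and 3349. Lower calls over the 6 lists together, 15, were 9 without the low-count filter and 24 with total-count scaling. Heparan sulfate genes had 3 lower with DESeq2 and 3 without the filter. Adaptor and ERK genes had 12 lower with total-count scaling and 11 with filtered limma at either pseudocount. Other ligands had 1 lower without the filter, and 1 with the replicate block. Processing genes had 0 lower without the filter, and 2 with total-count scaling, with the replicate block and with each of the 3 limma fits. Other receptors had 2 higher with each limma fit. With 1 library left out, lower calls ranged from 6 to 15 over the lists together, 1 to 2 for other ligands, 2 to 5 for heparan sulfate, 2 to 9 for adaptors and 0 to 1 for processing genes, and higher calls of other receptors from 2 to 4.

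The replicate numbers of the labels did not pair the samples (correlations of deviations from group means 0.0592, -0.03 and 0.0377). No HGF library and control of the same number were each other's best match. The replicate block gave 3406 higher and 3440 lower calls over all genes. Fgf2, Fgfbp1, Fgfr2 and Fgf17 had low counts in each library, and Fgf2 also varied widely between controls.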
